A study of Mus musculus with 4 samples.

Results

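The genes described here are the replication-dependent histone genes of mouse thymus cells, taken as every symbol in the count tables that begins with Hist1h, Hist2h, Hist3h or Hist4h. These were 67 of 21926 genes, namely 6 linker histone H1 genes, 18 H2A genes, 18 H2B genes, 12 H3 genes and 13 H4 genes. In the GRCm38 annotation (GENCODE M21), 54 of them lie on chromosome 13, between positions 21715763 and 23934851, 10 on chromosome 3, 2 on chromosome 11 and 1 on chromosome 6. Levels were compared between cell cycle states within each library, and between the libraries within each state.

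Core histones H2A, H2B, H3 and H4 form the protein spool around which DNA is wrapped, and H1 binds the linker DNA between spools. Most genes of this family are transcribed mainly while DNA is replicated, and their mRNAs usually end in a conserved stem-loop in place of a poly(A) tail, which the stem-loop binding protein recognises. Dividing thymocytes, chiefly at the double-negative (DN) stage and the early double-positive (DP) stage, pass through S phase, whereas most DP cells and the mature single-positive (SP) cells rest.

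Single-cell RNA was measured in unsorted thymus cells of 5-week-old mice, labelled female and assigned to the same batch. The library labelled WT came from 1 mouse of genotype Eif4g2 flox/flox without Cre, and the library labelled Eif4g2 cKO came from 1 Eif4g2 flox/flox mouse carrying Cd4-Cre, which deletes floxed sequence in T lineage cells from about the DP stage. Both lines were kept on a C57BL/6 background, and both mice carried the floxed alleles. The labels also list an oligo library for each mouse, which had no count table of its own. With 1 mouse and 1 library per genotype there was no test, genotype, mouse and library cannot be told apart, and every interval given here is an exact 95% interval that covers counting error only.

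The targeted gene went against its label. Eif4g2, a translation initiation factor related to eIF4G1, had 222.8 CPM (UMIs, unique molecular identifiers that each count 1 captured RNA molecule, scaled to the total of the cells compared) in the library labelled WT and 273.6 in the library labelled Eif4g2 cKO, a log2 ratio of 0.30 (0.24 to 0.36). Within states the ratio was 0.96 in cells low for the cell cycle and −0.52 in cells with G2M genes alone. Which exons were flanked is not given in the sources used here, so whether the counted 3′ ends lay in the deleted part is unknown. Kdm5d, Uty and Eif2s3y, on the Y chromosome, had 2542 UMIs in the library labelled WT and 1 in the other, although both mice are labelled female. Libraries are therefore named by their labels throughout, and every direction between them rests on those labels.

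The filtered libraries held 6012 and 4335 cells (labelled WT first here and below), with 18352386 and 18056277 UMIs, a median of 1734 and 2140 UMIs per cell and at least 1000 UMIs in each cell. At least 1 UMI of the T lineage markers of the fixed list was found in 99.5% and 99.9% of cells. The libraries shared 1055 cell names, which are serial names and not barcode sequences. Haemoglobin and other erythroid genes were found in 42.0% of cells of the library labelled WT and 5.35% of the other. Without the 87 and 11 cells rich in erythroid or antigen-presenting cell genes, the summed histone values kept their direction, with a log2 ratio of 2.09 between the S only and cycle-low cells described below labelled WT and of −0.44 between the libraries in all cells.

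The stem-loop is the sequence shared by most of these genes. It was found in the 3′ untranslated region (UTR) of the longest annotated coding transcript of 43 of the 67 genes. With any coding transcript allowed, 72 of 21901 protein-coding genes had it (0.329%), and 44 of these were members. Some annotated transcripts are short, such as that of Hist1h4k (312 bases). A stem-loop past their end would be missed, so the other members need not lack it. It is shown for an H2A, an H3 and an H4 gene, 5′ to 3′ on the transcribed strand, from GENCODE M21 transcripts on GRCm38, with the 16 bases of stem and loop in capitals.
Hist1h2ae (chr13:23570663-23570688, minus strand): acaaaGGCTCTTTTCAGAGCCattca
Hist1h3c (chr13:23745042-23745067, minus strand): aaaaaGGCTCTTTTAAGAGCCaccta
Hist1h4d (chr13:23581945-23581970, plus strand): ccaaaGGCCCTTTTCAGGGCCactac

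The bases just before the stem-loop differed widely in A content, and are shown for Hist1h2ae, Hist1h2ap and Hist1h2ab, H2A genes with many A and high counts, for Hist1h2ao, which has the same bases as Hist1h2ap, and for Hist3h2ba, whose level was lower in S only than in cycle-low cells. Here the capitals mark the first 10 bases of the stem-loop. All lie in annotated 3′ UTRs.
Hist1h2ae (chr13:23570674-23570703, minus strand): aatctcgtaaaaaaaacaaaGGCTCTTTTC
Hist1h2ap (chr13:21833035-21833064, minus strand): ccgaaaagaaaaaaaaaaaaGGCTCTTTTC
Hist1h2ao (chr13:21810878-21810907, plus strand): ccgaaaagaaaaaaaaaaaaGGCTCTTTTC
Hist1h2ab (chr13:23751552-23751581, plus strand): tgaaagttaaccaaaacaaaGGCTCTTTTC
Hist3h2ba (chr11:58949329-58949358, plus strand): gagagcgcccccaacccaaaGGCTCTTTTC

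A canonical polyadenylation signal (AATAAA or ATTAAA within 40 bases of the annotated transcript end) was present in 17 of the 67 genes. It is shown, in capitals, for the 3 genes of that kind with lower levels in S only than in resting cells that have over 1000 UMIs, and for Hist1h2ae, which had most UMIs of all. These 4 windows also lie in annotated 3′ UTRs.
Hist3h2ba (chr11:58949495-58949524, plus strand): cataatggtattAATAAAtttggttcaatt
Hist3h2a (chr11:58956785-58956814, plus strand): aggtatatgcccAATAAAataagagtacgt
Hist1h1c (chr13:23740330-23740359, plus strand): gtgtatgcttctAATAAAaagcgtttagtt
Hist1h2ae (chr13:23570527-23570556, minus strand): cccagcttctccAATAAAtgggtcaatttt

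Histone gene UMIs were 104599 in the library labelled WT (0.570% of all UMIs) and 77379 in the library labelled Eif4g2 cKO (0.429%). A few H2A genes carried most of them: Hist1h2ae and Hist1h2ap together held 41.0% of the 181978 UMIs, and the 10 genes with most UMIs held 74.1%. Of the 67 genes, 55 had at least 200 UMIs over both libraries, 9 had fewer, and Hist1h2bq, Hist1h2ba and Hist1h2aa had none. At least 1 histone UMI was found in 90.1% and 88.2% of cells. Of 44 cycle-low cells rich in erythroid genes in the library labelled WT, 54.6% had a histone UMI, at a median depth of 6090 UMIs. A histone UMI in a single cell is therefore not read as expression here, and levels are given as CPM, summed over the cells of a state. Levels count captured molecules only. These mRNAs usually lack a poly(A) tail, and what part of them was captured is not known from UMI counts. That part need not be the same for each gene or state.

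States were set without any histone gene. For each cell, the share of its non-histone UMIs in 30 S phase genes (such as Mcm2 and Pcna) and in 31 G2M genes (such as Top2a and Cdk1) was computed. Cells with both shares under 0.2% are called cycle-low, cells with an S share of at least 0.5% and a smaller G2M share S only, cells with both of at least 0.5% S and G2M, cells with the G2M share alone of at least 0.5% G2M only, and the rest between. These are ranges and not cell types. In the library labelled WT they held 4740, 212, 171, 484 and 405 cells, and in the library labelled Eif4g2 cKO 2810, 306, 221, 569 and 429. S only cells were 3.53% (3.07 to 4.02) and 7.06% (6.31 to 7.86) of cells, and cycle-low cells 78.8% (77.8 to 79.9) and 64.8% (63.4 to 66.2). After each cell was thinned to 1000 UMIs, S only cells were 3.72% and 7.08%. Of the S only cells, 90 and 116 lay within 0.1 percentage points of a limit.

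Histone gene levels were lowest in cycle-low cells, higher in S only cells and highest in cells with both lists. In the library labelled WT the sum over all 67 genes was 1724 CPM in cycle-low cells (1698 to 1750), 7563 in S only cells (7437 to 7690), 16945 in S and G2M cells (16722 to 17170) and 13075 in G2M only cells (12949 to 13202). The sums of the library labelled Eif4g2 cKO in the same order were 1364 (1335 to 1395), 4872 (4787 to 4958), 9026 (8886 to 9168) and 6887 (6810 to 6964). The order of the 4 states was the same in both libraries, with no overlap between intervals. The log2 ratio of S only to cycle-low cells was 2.13 (2.10 to 2.17) and 1.84 (1.80 to 1.88), that of S and G2M to S only cells 1.16 (1.13 to 1.20) and 0.89 (0.86 to 0.92), and that of G2M only to S and G2M cells −0.37 and −0.39. The order was the same at equal depth. In cells thinned to 1000 UMIs the mean histone count was 2.05, 8.15, 20.9 and 16.8 UMIs labelled WT and 1.55, 5.29, 10.7 and 8.39 in the other. With the limits at 1.0% in place of 0.5%, which left 2 and 4 S and G2M cells, the S and G2M to S only ratio was 1.99 and 0.51.

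**Figure D1:**
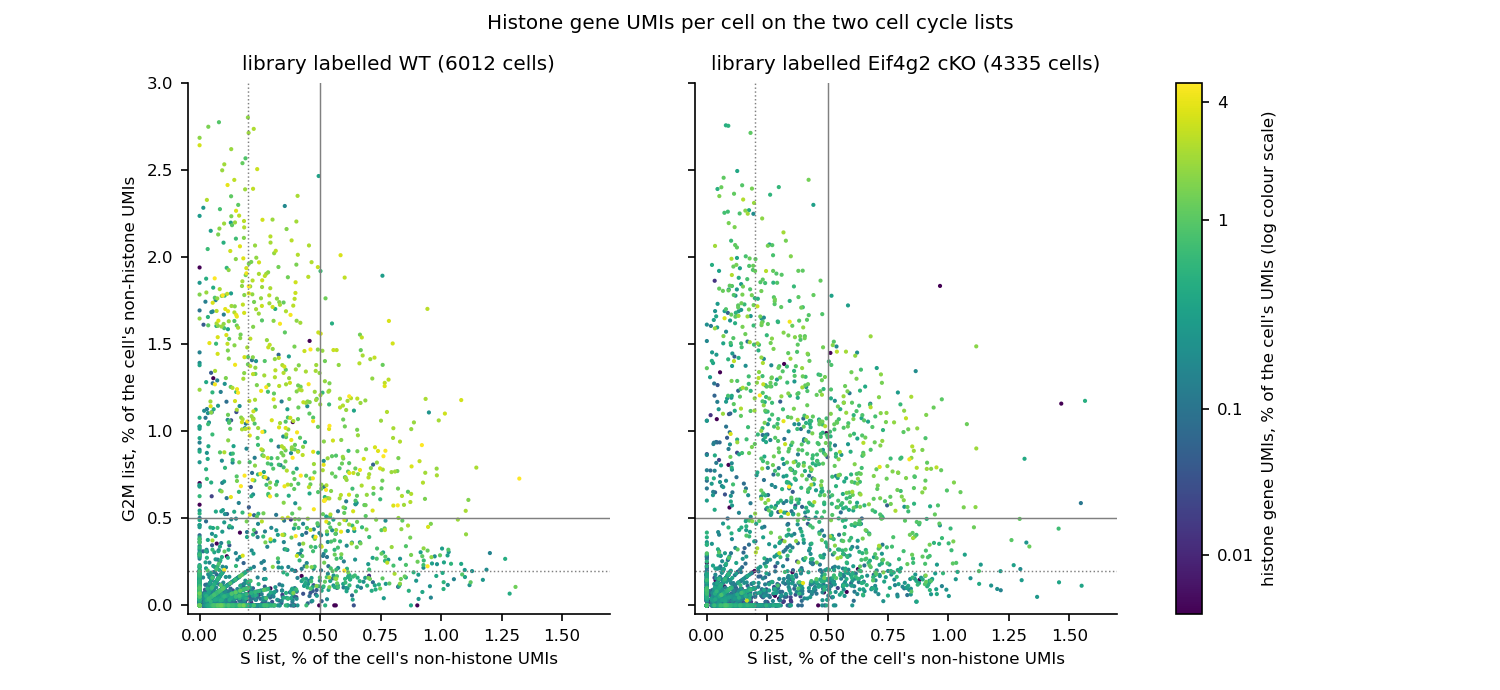
Each point is a cell, placed by its S list share (x axis) and G2M list share (y axis), both in percent of its non-histone UMIs, and coloured by its share of histone gene UMIs on a log scale, with a panel for each labelled library. Solid lines mark the 0.5% limits and dotted lines the 0.2% limits. The median cell was brightest where both shares pass 0.5%, with 1.91% histone UMIs in the library labelled WT and 0.947% in the other. Bright cells also lie in the G2M only region, where the median cell had 1.51% and 0.711%.

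Among cells past the limit of 0.5% on either list, histone levels rose with the share of the other list. Among cells with an S share of at least 0.5%, the library labelled WT had 5722 CPM where the G2M share was above 0 and under 0.2%, 9010 between 0.2% and 0.5%, 15741 between 0.5% and 1%, and 20356 between 1% and 2%. The corresponding levels in the library labelled Eif4g2 cKO were 3449, 6491, 8627 and 10063 CPM. Each step was upward in both libraries. The lowest of these bins held 95 and 163 cells and the highest 59 and 78. Among cells with a G2M share of at least 0.5%, the library labelled WT had 4654 CPM (30 cells) where the S share was under 0.001%. It had 12500 CPM from there to 0.2%, 13577 between 0.2% and 0.5% and 16708 between 0.5% and 1%. The library labelled Eif4g2 cKO had 6358, 7104 and 8967 CPM in the same bins from 0.001% up. The median cell of the S only state had 0.530% and 0.416% histone UMIs, against 0.165% and 0.116% of the cycle-low state.

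Gene by gene, most members with enough counts were higher in S only than in cycle-low cells. In the library labelled WT, 36 of the 49 genes with at least 50 UMIs over the 2 groups were higher by over 1 on the log2 scale, 2 were lower by as much and 11 lay between, with a median of 1.54. Of all 9510 genes with that many UMIs, 8.66% were higher and 30.9% lower, with a median of −0.52. In the library labelled Eif4g2 cKO the counts were 27 higher, 3 lower and 9 between of 39, with a median of 1.57, and the shares of all genes were 7.06% higher and 33.5% lower, with a median of −0.60. Members higher in both libraries numbered 25 of the 39 measured in both, against 6.27% of the 8599 genes measured in both, and Hist3h2a and Hist3h2ba were lower in both. Without members with over 50% of their 50-base stretches in another gene, 16 of 25 and 11 of 21 were higher by over 1, with medians of 1.21 and 1.04. Among the members so left out it was 20 of 24 and 16 of 18, with medians of 1.99 and 2.42. With at least 100 UMIs required, 17 members were higher by over 1 in the library labelled Eif4g2 cKO. Across the 55 genes with at least 200 UMIs, the mean ratio of the libraries ran from −2.31 for Hist3h2a to 5.85 for Hist1h3b. The lowest 5 were Hist3h2a, Hist3h2ba (−1.93), Hist2h2be (−0.96), Hist1h1c (−0.67) and Hist4h4 (−0.24). The highest 5 were Hist1h3b, Hist1h3c (4.82), Hist1h2ah (4.23), Hist1h2bm (4.14) and Hist1h3g (4.14). The intervals of Hist1h2ah, Hist1h2bm and Hist1h3g overlap in both libraries. Hist4h4 had under 50 UMIs in the library labelled Eif4g2 cKO (28 in cycle-low and 16 in S only cells), and Hist1h2ah in both libraries (8 and 24 labelled WT). In the library labelled Eif4g2 cKO, Hist1h2ah had 4 and Hist1h3g 3 UMIs in cycle-low cells, with ratios of 4.46 (2.99 to 6.41) and 4.40 (2.71 to 6.76), and Hist1h3g also lay under the limit of 50 UMIs there. The states also differed in their share of DP-range cells, defined below. Labelled WT these were 2599 of 4740 cycle-low and 24 of 212 S only cells, and in the other library 1210 of 2810 and 5 of 306. The part of developmental stage in the S only over cycle-low ratios, summed or by gene, was not tested.

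**Figure D2:**
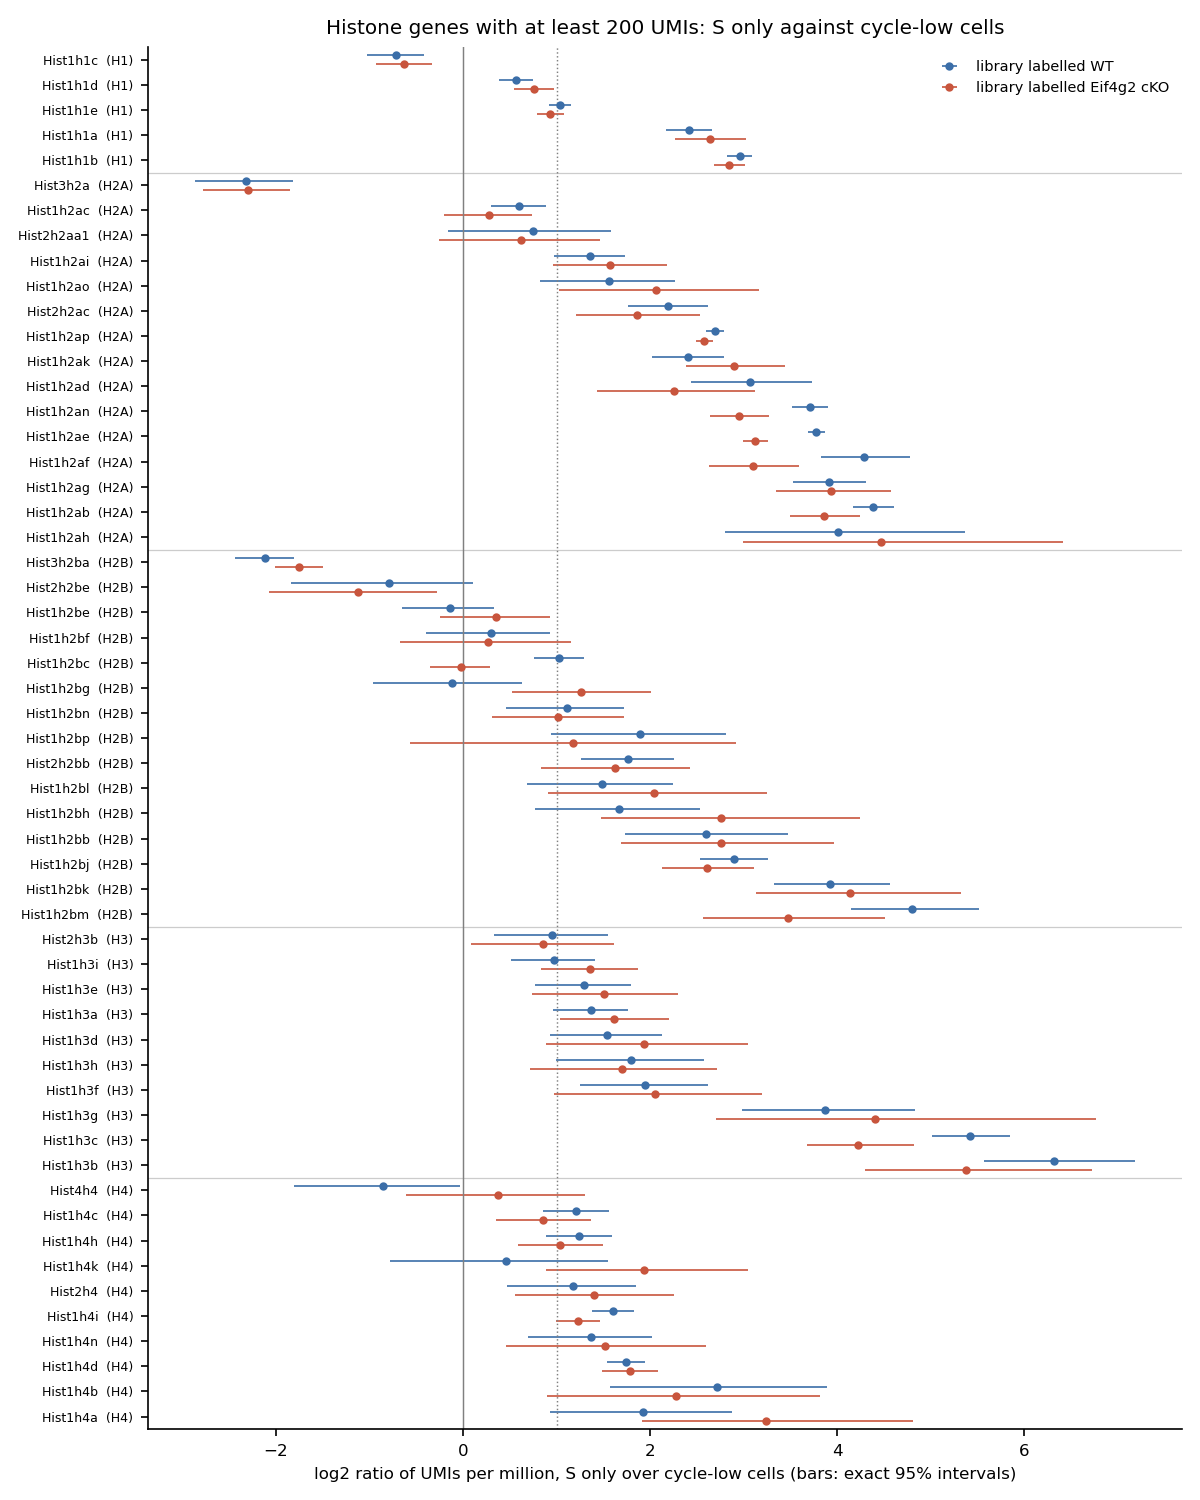
Each row is a histone gene with at least 200 UMIs, grouped by type and ordered by its ratio, with the log2 ratio of CPM in S only over cycle-low cells on the x axis, a point for each labelled library and bars for exact 95% intervals. The solid line marks no difference and the dotted line 1. Hist3h2a and Hist3h2ba sit near −2 in both libraries, while Hist1h3b sits above 5 in both.

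The types moved by different amounts. H2A and H3 had the highest S only over cycle-low ratios, 2.996 and 2.512 for H2A and 2.83 and 2.58 for H3. H1 (1.46 and 1.44) and H4 (1.46 and 1.40) were intermediate, and H2B, summed over its genes, had 0.43 (0.32 to 0.54) and 0.01 (−0.11 to 0.13). The H2B sum in cycle-low cells was mostly Hist3h2ba, with 2084 of 3551 UMIs labelled WT and 1097 of 1748 labelled Eif4g2 cKO. By gene, 8 of 13 and 6 of 10 H2B genes with at least 50 UMIs were higher by over 1, with medians of 1.11 and 1.14. The share of histone UMIs held by H2A was 33.1% in cycle-low and 60.2% in S only cells of the library labelled WT, and 38.0% and 60.7% in the other. The H2B share was 21.1% and 6.49%, and 22.0% and 6.20%. These shares compare counts of 3′ tags and carry the capture of each mRNA with them.

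**Figure D3:**
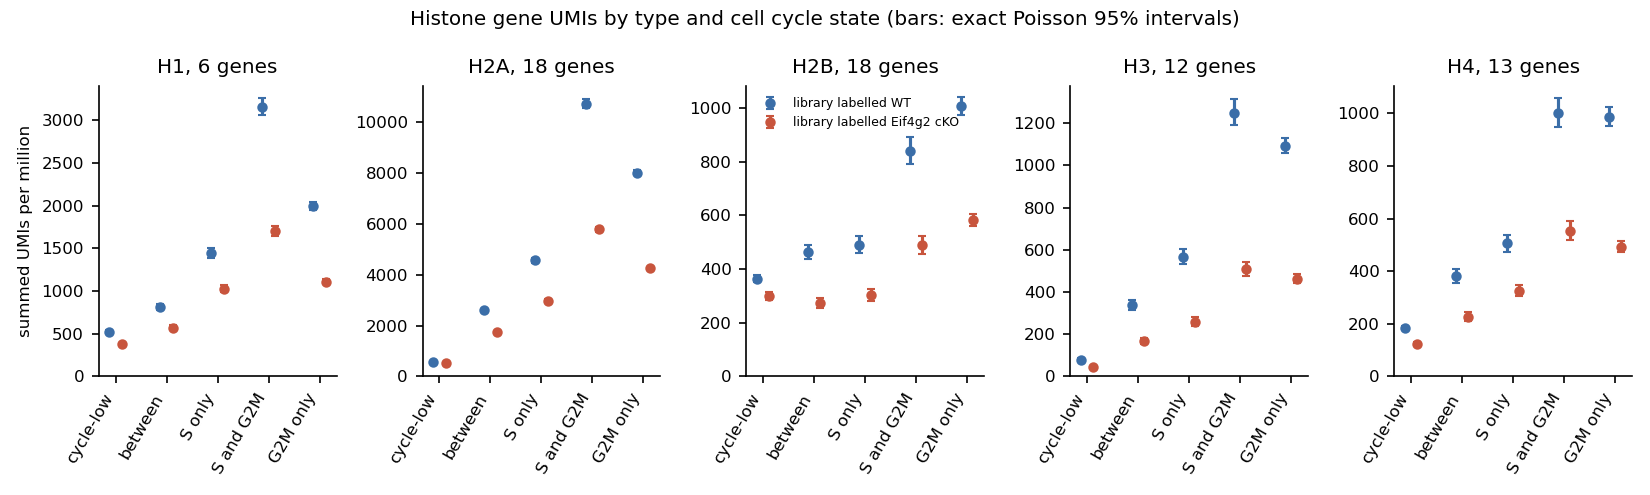
Summed CPM of each histone type (y axis, a scale for each panel) by cell cycle state (x axis), with a point for each labelled library and bars for exact Poisson 95% intervals. In all 5 panels the S only and the S and G2M levels of the library labelled WT lie above those of the library labelled Eif4g2 cKO, and the H2B panel shows cycle-low and S only levels of similar height (364 and 491 CPM labelled WT, 300 and 302 labelled Eif4g2 cKO).

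Of the linker histone H1 genes, Hist1h1b and Hist1h1a showed the steepest differences between states and Hist1h1c went the other way. Hist1h1b had 82.5 CPM in cycle-low, 640.7 in S only, 1373 in S and G2M and 805.2 in G2M only cells labelled WT, and 66.8, 479.5, 751.4 and 470.6 CPM in those labelled Eif4g2 cKO. Its S only over cycle-low ratio was 2.96 (2.83 to 3.09) and 2.84 (2.68 to 3.01). Hist1h1a, of 1674 and 1030 UMIs, went from 28.3 to 151.5 CPM and from 13.7 to 85.4, ratios of 2.42 and 2.64. Hist1h1e had most UMIs of any histone gene in cycle-low cells after Hist3h2ba in the library labelled WT. Its CPM was 205.2 in cycle-low and 421.1 in S only cells labelled WT, and 152.6 and 291.6 in the other, ratios of 1.04 and 0.93. Hist1h1d lay at 117.9 and 175.1, and at 71.4 and 120.8, ratios of 0.57 and 0.76. Hist1h1c was lower in S only cells, at 91.8 and 56.0 CPM, and 74.3 and 48.2, ratios of −0.71 and −0.63 that did not pass 1. Hist1h1t, the testis H1 gene, had 26 and 5 UMIs in all and is not compared.

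The H2A genes held the highest counts. Hist1h2ae had 156.2 CPM in cycle-low, 2142 in S only, 5407 in S and G2M and 3555 in G2M only cells labelled WT, and 102.3, 893.4, 1863 and 1172 CPM in those labelled Eif4g2 cKO. Hist1h2ap had 155.1, 1004, 2308 and 1904 CPM, and 236.9, 1417, 2642 and 2001 CPM. Both were thus lowest in cycle-low cells and highest in S and G2M cells, but the library with the higher level differed. Their S only over cycle-low ratios were 3.78 (3.69 to 3.86) and 3.13 (2.996 to 3.259) for Hist1h2ae, and 2.69 (2.60 to 2.79) and 2.58 (2.49 to 2.67) for Hist1h2ap. A UMI of Hist1h2ae was found in 22.3% of cycle-low and 88.7% of S only cells labelled WT, and in 16.3% and 86.0% of the others. In the erythroid-rich cells of the library labelled WT, where little histone mRNA would be expected, Hist1h2ae had 44.9 CPM and Hist1h2ap 29.9. The erythroid genes count in the total of those cells, which lowers these values.

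Hist1h2ab went from 21.9 to 456.2 CPM between cycle-low and S only cells labelled WT and from 12.02 to 174.3 in the others, ratios of 4.38 and 3.86. Hist1h2an went from 31.9 to 417.8 and from 19.2 to 148.7 CPM, ratios of 3.71 and 2.95. Hist1h2af went from 5.03 to 98.3 and from 8.24 to 70.7 CPM, ratios of 4.29 and 3.10. These 3 genes and Hist1h2ag, with 3.91 and 3.93, were all far above the threshold in both libraries. Hist3h2a, on chromosome 11, was the exception among the H2A genes, with 90.3 CPM in cycle-low and 18.1 in S only cells labelled WT and 84.0 and 17.1 in the others, ratios of −2.32 and −2.30. The other H2A genes with at least 200 UMIs, namely Hist1h2ak, Hist1h2ac, Hist1h2ai, Hist2h2ac, Hist1h2ad, Hist1h2ah, Hist1h2ao and Hist2h2aa1, had 140 to 1105 UMIs labelled WT and 130 to 743 labelled Eif4g2 cKO, at most 44.9 CPM in cycle-low cells, and positive ratios in both libraries, from 0.28 for Hist1h2ac to 4.46 for Hist1h2ah, both labelled Eif4g2 cKO. Hist1h2ah in both libraries and Hist1h2ao labelled Eif4g2 cKO had under 50 UMIs over both groups.

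H2B genes were the most divided. Hist3h2ba, next to Hist3h2a on chromosome 11 and the H2B gene with most UMIs, had 213.8 CPM in cycle-low, 49.4 in S only, 93.0 in S and G2M and 200.5 in G2M only cells labelled WT, and 188.3, 55.9, 101.3 and 177.0 CPM in those labelled Eif4g2 cKO. Its S only over cycle-low ratio was −2.11 (−2.43 to −1.81) and −1.75 (−2.01 to −1.50), and it held 12.4% and 13.8% of histone UMIs in cycle-low cells. Hist1h2bm went from 2.36 to 65.9 and from 2.06 to 22.9 CPM, ratios of 4.80 and 3.48. Hist3h2ba was thus lowest in S only cells and close in cycle-low and G2M only cells, whereas Hist1h2bm was lower in cycle-low than in S only cells. Hist1h2bk (3.92 and 4.14) and Hist1h2bj (2.89 and 2.61) were also higher in S only cells. Hist1h2be, with −0.14 and 0.35, was within the threshold in both libraries. Hist1h2bc had 43.4, 88.4, 56.9 and 114.0 CPM over the 4 states labelled WT and 45.8, 45.0, 29.2 and 59.9 CPM in the other library, so that its ratio passed 1 only in the library labelled WT (1.03 against −0.03). Of the members with enough counts it was the only one lower in S and G2M than in S only cells by over 0.5, with −0.64 and −0.63. The other H2B genes with at least 200 UMIs, Hist2h2bb, Hist1h2bn, Hist1h2bg, Hist1h2bf, Hist1h2bb, Hist2h2be, Hist1h2bl, Hist1h2bh and Hist1h2bp, had 146 to 428 and 71 to 299 UMIs and ratios from −1.12 for Hist2h2be to 2.76 for Hist1h2bb and Hist1h2bh. Of these, Hist1h2bf, Hist1h2bb, Hist1h2bl, Hist1h2bh and Hist1h2bp had under 50 UMIs over both groups labelled Eif4g2 cKO, where both values of 2.76 lie. Hist1h2bb and Hist1h2bp had under 50 labelled WT too.

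H3 genes had the steepest single ratios on low cycle-low counts. Hist1h3c went from 5.75 to 245.4 CPM between cycle-low and S only cells labelled WT, and from 5.15 to 96.3 in the others, ratios of 5.42 (5.01 to 5.84) and 4.23 (3.68 to 4.82). Hist1h3b went from 1.54 to 123.0 and from 1.20 to 50.1 CPM, ratios of 6.32 (5.57 to 7.18) and 5.38 (4.30 to 6.72). The wide intervals reflect 15 and 7 UMIs of Hist1h3b in cycle-low cells. Hist1h3a (1.37 and 1.62) and Hist1h3e (1.29 and 1.51) were higher by less, and Hist1h3i passed 1 in the library labelled Eif4g2 cKO alone (0.97 and 1.35). Hist2h3b was within the threshold in both (0.96 and 0.85). Hist1h3f, Hist1h3g, Hist1h3d and Hist1h3h, of 214 to 291 and 123 to 178 UMIs, had ratios from 1.54 to 4.40. All of them had under 50 UMIs over both groups in the library labelled Eif4g2 cKO.

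H4 genes kept closer together. Hist1h4d had 53.0 CPM in cycle-low, 177.3 in S only, 431.9 in S and G2M and 440.0 in G2M only cells labelled WT, and 27.0, 92.8, 201.4 and 178.1 CPM in the other library, with S only over cycle-low ratios of 1.74 (1.54 to 1.95) and 1.78 (1.49 to 2.08). Hist1h4i had 45.8, 139.5, 143.7 and 132.4 CPM, and 49.8, 116.9, 122.5 and 116.0, so its level was nearly flat over the 3 cycling states. Its S and G2M over S only ratio was 0.04 and 0.07. Hist1h4h (1.24 and 1.04), Hist1h4c (1.21 and 0.86), Hist2h4 (1.18 and 1.40) and Hist1h4n (1.37 and 1.52) were higher in S only cells, Hist1h4c within the threshold in the library labelled Eif4g2 cKO. Hist1h4n had under 50 UMIs over both groups in the library labelled Eif4g2 cKO. Hist4h4, on chromosome 6, had 12.9 and 7.14 CPM in cycle-low and S only cells labelled WT and 4.81 and 6.21 in the others, ratios of −0.86 and 0.37. Hist1h4k, Hist1h4a and Hist1h4b, of 111 to 174 and 112 to 163 UMIs, had ratios from 0.46 to 3.24, all on under 50 UMIs over both groups in each library.

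From S only to S and G2M cells, 37 of 46 members of the library labelled WT were higher by over 0.5 on the log2 scale, 1 (Hist1h2bc) was lower and 8 lay between, with a median of 1.01. Of all genes 15.6% were higher and 9.04% lower, with a median of 0.07. Of 41 members of the library labelled Eif4g2 cKO, 34 were higher, 1 (Hist1h2bc) was lower and 6 lay between, with a median of 0.82, against 16.6% higher and 7.74% lower and a median of 0.11 over all genes. Both H2A and H1 had higher sums in S and G2M cells, by 1.23 and 0.96 for H2A and 1.13 and 0.73 for H1. Hist3h2a and Hist3h2ba shared this second difference although they had been lowest in S only cells, with 0.96 and 0.98 for Hist3h2a and 0.91 and 0.86 for Hist3h2ba. From S and G2M to G2M only cells, H1 had the lowest ratio of the types (−0.66 and −0.62) and H2B the highest (0.26 and 0.25).

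Histone gene levels were lower in the library labelled Eif4g2 cKO than in the library labelled WT in every state, although Eif4g2 itself was lower only in S and G2M (−0.56) and G2M only cells (−0.52) and higher in cycle-low (0.96) and S only cells (0.26). The log2 ratio of the summed CPM was −0.34 (−0.38 to −0.30) in cycle-low, −0.63 (−0.67 to −0.60) in S only, −0.91 (−0.94 to −0.88) in S and G2M, −0.93 (−0.95 to −0.90) in G2M only and −0.41 (−0.43 to −0.40) in all cells. Without Hist1h2ae, the member with most UMIs, the ratio was −0.45 in S only cells and −0.26 in all cells, and without the members with over 50% of their 50-base stretches in another gene it was −0.88 and −0.68. The direction was the same in each case, as it was with the limits at 1.0% (−0.29, on 30 and 37 S only cells). In S only cells the median depth was 6538 and 6820 UMIs and the median S share 0.670% and 0.688%, while ribosomal protein genes held 31.2% and 35.3% of UMIs. The part of ribosomal protein genes in the ratio was not tested beyond leaving them and mitochondrial genes out of the denominator, which gave −0.55 in S only cells. The DP genes also differed within states, with a summed 826.3 CPM labelled WT and 568.4 labelled Eif4g2 cKO in S only cells and 1341 and 860.1 in G2M only cells. DP-range cells, defined below by those genes, were 154 of 484 and 72 of 569 G2M only cells, and had 14092 and 4425 histone CPM. The cells in no developmental range had 13073 and 7079 CPM in G2M only, 16911 and 9036 in S and G2M and 7659 and 4905 in S only cells. Cells in no range need not share a stage, and the part of developmental stage in the ratio between libraries was not tested.

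Within S only cells, 29 of 43 members with at least 50 UMIs were lower by over 0.5 in the library labelled Eif4g2 cKO, 1 was higher and 13 lay between, with a median of −0.79. Of all 6665 genes measured there, 30.9% were lower and 5.52% higher, with a median of −0.19. Among genes spanning at most 5 kb 10.4% were lower and 10.1% higher, with a median of 0.07. In S and G2M cells 39 of 45 members were lower, none was higher and 6 lay between (median −0.95), against 28.8% lower and 5.75% higher of all genes. In G2M only cells 48 of 57 were lower, none was higher and 9 lay between (median −0.93), against 35.3% lower and 4.18% higher. In cycle-low cells 28 of 44 were lower, 2 (Hist1h2ap and Hist1h2af) were higher and 14 lay between (median −0.73), against 30.2% lower and 8.4% higher. Lower levels in all 3 cycling states were found for 27 of the 42 members measured in all 3, against 18% of the 5732 genes measured in all 3. None was higher in all 3, and Hist1h2ap, Hist3h2ba, Hist3h2a, Hist1h4i and Hist2h4 lay within 0.5 in all 3. These comparisons share the same 2 mice, so they are not independent of each other. Leaving out the members whose sequence is mostly repeated in another gene left 33, before the limit of 50 UMIs. Of those, 16 passed 0.5 either way in S only cells.

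**Figure D4:**
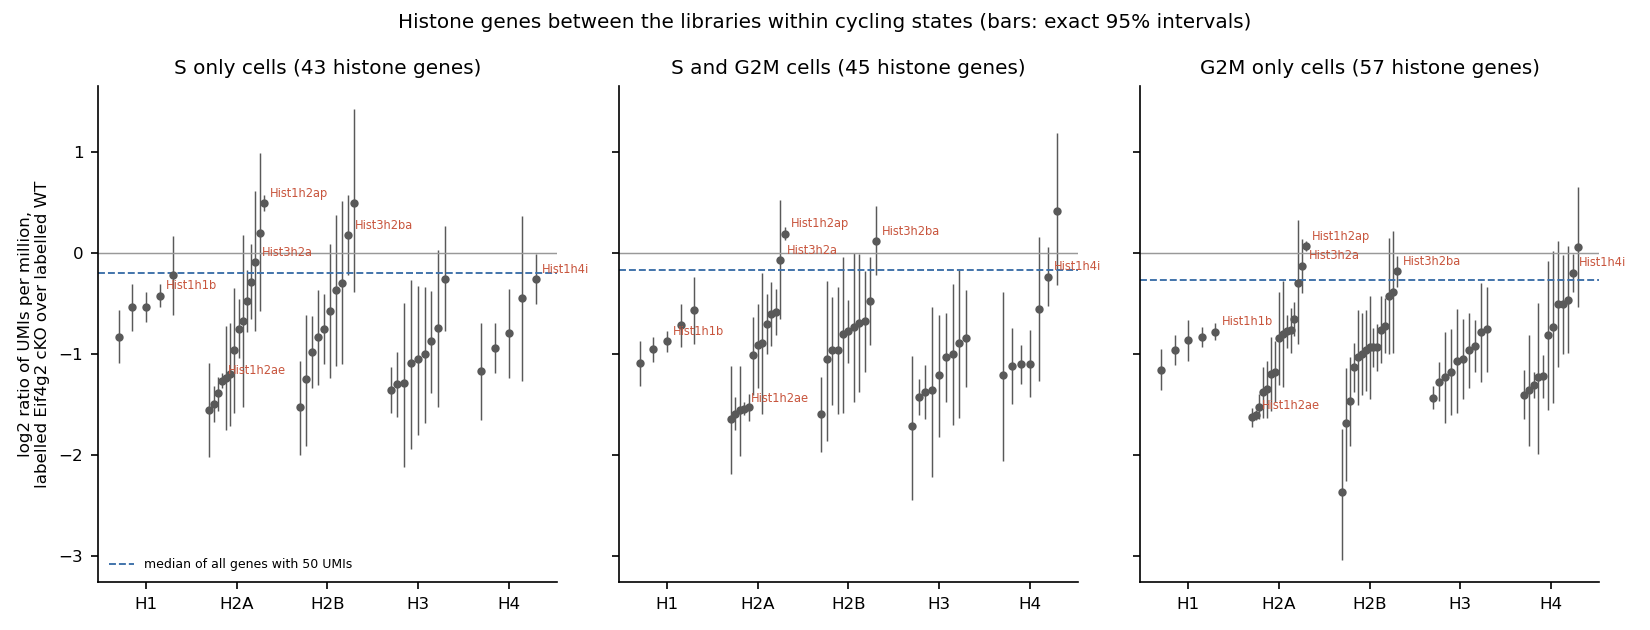
The log2 ratio of CPM, labelled Eif4g2 cKO over labelled WT (y axis), for each histone gene with at least 50 UMIs, by type (x axis) in S only, S and G2M and G2M only cells, with exact 95% intervals as bars. The solid line is 0 and the dashed line the median of all genes. Most points lie under the dashed line (member medians −0.79, −0.95 and −0.93), while Hist1h2ap lies above 0 (0.50, 0.20 and 0.07) in all 3 panels.

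By type, the summed difference between the libraries was largest for H3. In S only cells the summed ratio was −1.13 for H3 (−1.27 to −0.99), −0.70 for H2B (−0.84 to −0.56), −0.63 for H4 (−0.77 to −0.50), −0.62 for H2A (−0.67 to −0.58) and −0.50 for H1 (−0.57 to −0.42). The intervals of H2B, H4 and H2A overlap, and that of H1 overlaps those of H2B and H4. Among the members lower in S only cells, Hist1h2ae had −1.26 (−1.34 to −1.19), Hist1h2ab −1.39, Hist1h2an −1.49, Hist1h2bm −1.52 and Hist1h2ac −1.55. Hist1h3c had −1.35 (−1.58 to −1.12), Hist1h3b −1.30, Hist1h3d −1.29 and Hist1h4c −1.17. The lower members also held Hist1h1e (−0.53), Hist1h1d (−0.54), Hist1h1a (−0.83), Hist1h4d (−0.93) and Hist1h4h (−0.79). The rest of the 29, Hist1h2ag, Hist1h2bc, Hist1h2bj, Hist1h2ai, Hist1h2bk, Hist2h2ac, Hist1h3a, Hist1h2be, Hist2h2bb, Hist1h2ad, Hist1h3e, Hist2h3b, Hist1h3f, Hist1h3g and Hist1h2ao, ran from −0.57 to −1.25. Close to the threshold lay Hist1h2bg, just past it with 0.50 on 17 and 34 UMIs, and Hist1h2ap, just inside it with 0.50 (0.42 to 0.58) on 1829 and 3650 UMIs. Hist1h1b (−0.42), Hist1h1c (−0.22), Hist3h2ba (0.18) and Hist3h2a (−0.09) also lay within it.

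The 2 leading H2A genes exchanged rank between the libraries. Hist1h2ae had 26333 UMIs labelled WT and 13061 labelled Eif4g2 cKO, and Hist1h2ap 13832 and 21460. For each UMI of Hist1h2ae there were 0.525 (0.515 to 0.536) UMIs of Hist1h2ap in the library labelled WT and 1.64 (1.61 to 1.68) in the other. In every state the value was higher in the library labelled Eif4g2 cKO: 2.32 against 0.993 in cycle-low, 1.59 against 0.469 in S only, 1.42 against 0.427 in S and G2M and 1.71 against 0.536 in G2M only cells. The annotated end of Hist1h2ap is not its own, since 100% of the 50-base stretches in its last 150 bases also occur in other genes, against 72.3% for Hist1h2ao. How reads matching several genes were counted is not given in the sources used here, so UMIs of Hist1h2ap, Hist1h2ao and the genes sharing their sequence cannot be told apart. In 34 members over 50% of the 50-base stretches occur in another gene, and these 34 held 40.2% of histone UMIs.

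Cycle-low cells differed in histone level by developmental marker range. Cells with at least 0.2% of UMIs in DP genes (such as Rag1 and Rag2) had 2469 CPM (2421 to 2516, 2599 cells) labelled WT and 1846 (1787 to 1906, 1210 cells) labelled Eif4g2 cKO. Cells with as much of the mature genes (such as Klf2 and S1pr1) had 557 (513 to 603, 287 cells) and 537 (447 to 639, 66 cells). Cells above the limit for neither these nor the DN genes had 1373 and 1165 CPM. DN-range cells numbered 22 and 29, with 1378 and 989 CPM. Among these developmental ranges, the histone CPM of cycle-low cells was thus highest in the DP range and lowest in the mature range in both libraries. The ranges differed in depth. Median UMIs of DP-range and mature-range cells were 1432 and 3567 labelled WT, and 1374 and 3199 in the other library. Levels of the ranges at equal depth were not computed. These are ranges of the same cells and not sorted populations.

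Hist3h2ba, Hist3h2a and Hist1h1c, which were lower in S only than in cycle-low cells, were higher in DP-range than in mature-range cycle-low cells. Hist3h2ba had 327 CPM (310 to 344) in DP-range and 35.5 (25.3 to 48.6) in mature-range cells labelled WT, and 284 (261 to 308) and 77.3 (45.8 to 122) in the others. Hist3h2a had 135 and 23.7 CPM, and 129 and 21.5, in the same order. Hist1h1c had 128 and 52.8, and 103 and 21.5. Hist1h2ae also differed, with 225 and 44.6 CPM, and 135 and 64.4. In the erythroid-rich cells labelled WT, Hist3h2ba had 15.0 CPM (4.08 to 38.3) on 4 UMIs and Hist3h2a none, which allows at most 13.8 CPM. The mature-range level of Hist3h2ba labelled WT overlaps that background in its interval, and no expression is read from it. That of Hist3h2a (15.5 to 34.7) lies above 13.8 CPM, but the 2 groups of cells differed in depth, so no expression is read from it. The mature-range level of Hist1h2ae labelled WT, 44.6 CPM, lies within the interval of its background in the erythroid-rich cells, 44.9 (23.2 to 78.4). No expression is read from it either. Median depth labelled WT was 6090 UMIs in the erythroid-rich cells, against 3567 in mature-range and 1432 in DP-range cells. A background in CPM need not be the same at these depths. The erythroid genes also count in the total of the erythroid-rich cells, which lowers the CPM of other genes there. Over all cycle-low cells labelled WT the erythroid genes had 25140 CPM. Levels in the erythroid-rich cells without these genes were not computed, so the CPM given for them are not a firm measure of background. How much of the DP-range and other cycle-low levels is background was not tested.

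**Figure D5:**
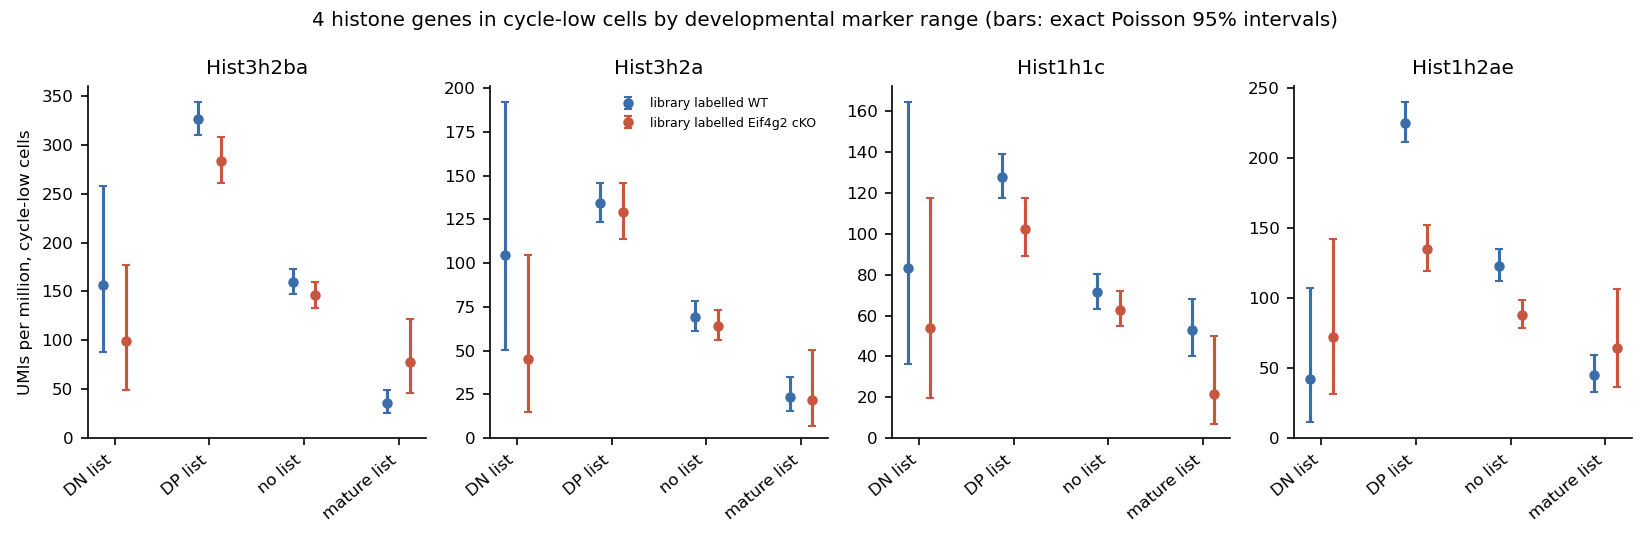
CPM in cycle-low cells (y axis) of Hist3h2ba, Hist3h2a, Hist1h1c and Hist1h2ae by developmental marker range (x axis: DN list, DP list, no list, mature list), with a point for each labelled library and bars for exact Poisson 95% intervals. All 4 genes are lower in mature-range than in DP-range cells in both libraries, as with Hist3h2ba at 327 and 35.5 CPM labelled WT.

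Genes for histone mRNA processing, for chaperones and for histone variants had median ratios between the libraries closer to 0 than that of the histone genes. The list for histone mRNA processing had 5 higher and none lower of 19 measured genes in S only over cycle-low cells labelled WT, and 4 and none of 19 in the other library. Of all genes, 8.66% and 7.06% were higher and 30.9% and 33.5% lower. Slbp, whose protein binds the stem-loop, had 48.1, 422.2, 526.4 and 151.7 CPM over cycle-low, S only, S and G2M and G2M only cells labelled WT, and 65.6, 603.8, 579.7 and 191.5 CPM in the others. Unlike the histone sum, its level was lower in G2M only than in S only cells. Eri1, an exonuclease that trims histone mRNA ends, had ratios of 1.31 and 1.04, while Lsm1 (−0.54 and −0.57), Srrt (0.47 and 0.54), Gon4l (−0.90 and −0.80) and Sympk (0.15 and −0.03) were within the threshold. Between the libraries in S only cells, 1 gene of the list was higher (Slbp, 0.52) and 4 were lower of 19, with a median of −0.08, where 5.52% of all genes were higher and 30.9% lower and the median of all genes was −0.19.

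Histone chaperones, which carry histones to DNA, had 13 higher and none lower of 20 in S only over cycle-low cells labelled WT and 10 and none of 18 in the other library. The shares of all genes higher there were 8.66% and 7.06%. The ratios were 2.06 and 1.87 for Nap1l1, 2.43 and 2.11 for Nasp, 1.47 and 1.08 for Anp32e and 1.42 and 1.61 for Rbbp7, while Rbbp4 (0.98 and 0.77) and Atrx (−0.61 and −0.90) were within the threshold. Between the libraries in S only cells 1 chaperone was higher (Rbbp7, 0.60) and 7 were lower of 19, with a median of −0.14, beside the same 30.9% lower and median of −0.19 of all genes. Atrx, a long gene, had −1.32. The replication-independent histone variants had 4 higher and none lower of 9, and 3 and none of 10, beside the same 8.66% and 7.06% of all genes higher. H2afz had 433.9 CPM in cycle-low and 3346 in S only cells labelled WT and 746.3 and 4147 in the others, ratios of 2.95 and 2.47. H2afx (1.59 and 1.24) was also higher, H2afv passed 1 labelled WT alone (1.25 and 0.98), and H3f3b (−0.34 and −0.42), H3f3a (0.12 and −0.01) and H2afj (0.09 and −0.07) were within the threshold. Between the libraries in S only cells 1 variant was higher (H2afx, 0.64) and none was lower of 10, with a median of 0.12, against the median of −0.79 of the replication-dependent genes. Of all genes, 5.52% were higher and 30.9% lower there.

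Members with a polyadenylation signal near the annotated end differed in pattern from those without it. Of the 17 with the signal, 10 had at least 50 UMIs in S only and cycle-low cells labelled WT, with a median ratio of −0.43, 4 over 1 and 6 under 0. Of the 50 without it, 39 had as many UMIs, with a median of 1.74, 32 over 1 and 1 under 0. The medians in the library labelled Eif4g2 cKO were 0.35 over 9 and 1.82 over 30 members. The lowest-ranked genes Hist3h2a, Hist3h2ba, Hist2h2be, Hist1h1c and Hist4h4 all carried the signal, and so did Hist1h2ae, one of the genes with a high ratio. A signal near the end was found in 76.0% of all protein-coding genes. This is a description of annotated ends, and which end the counted molecules had is not known from UMI totals. Some members without the signal have short annotated transcripts, such as Hist1h2bn (381 bases) and Hist1h4k (312 bases). A signal past such an end would be missed, so the grouping depends in part on how far the 3′ UTR is annotated.

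The 7 members with most A bases before the stem-loop held over 50% of histone UMIs. The 20 bases before it held 3 to 16 A, with a median of 8 over 43 members, and 16 in Hist1h2ap and Hist1h2ao, 13 in Hist1h2ae and 12 in Hist1h2ab. The 7 members with 10 or more A held 53.5% of histone UMIs, with a median of 9347 UMIs, against a median of 1273 for the 25 members with 7 to 9 A and 281 for the 11 with 6 or fewer. Spearman's rho of A content and UMIs was 0.51 over the 43 genes, which share both libraries and, in part, their sequence. Hist1h2ao, with the same 20 bases as Hist1h2ap, was given 336 UMIs, but UMIs of Hist1h2ap and Hist1h2ao cannot be told apart. Without Hist1h2ao rho was 0.56. Both values of rho depend on how reads of these genes were assigned. Of the UMIs of these 7 members, most were those of Hist1h2ae and Hist1h2ap, which held 41.0% of all histone UMIs. Hist1h2ad (401 and 247 UMIs), Hist2h2ac (628 and 388) and Hist1h2ao each lay below the median of the members with 7 to 9 A.

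Promoters, from RefSeq on GRCm38.p6 and covering 250 bases before to 50 after the start, were matched for 62 members. The letters TATAAA occurred, on either strand, in 35 of them (56.5%) and in 14.2% of all 27025 promoters, and CCAAT, on either strand, in 53 (85.5%) and 37.9%. Neither pattern contains the other. A match describes these letters and not a bound site.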

How the data were processed

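Single cells of 2 thymuses were profiled on the DNBelab C4 system, and the authors deposited 1 table of UMI counts per cDNA library, unnormalized, with mm10 as the build per the labels. The design text names dnbc4tools 2.1.3 and the file headers 3.0. How reads that match several genes were counted is not given in the sources used here. Cells were kept with at least 50 genes and at most 10% mitochondrial UMIs, which removed 2 cells from the library labelled WT and 0 from the other. Doublets were neither called nor removed. Counts were summed over cells of a state, scaled to the UMIs of those cells, and compared as log2 ratios with exact conditional binomial intervals, exact Poisson intervals for levels and Clopper-Pearson intervals for shares. Genes entered with at least 50 UMIs over both groups. Thresholds were 1 between cycle-low and S only cells and 0.5 elsewhere. Described fully were, for each type, up to 6 genes with most UMIs among those of at least 200; also named were the 5 lowest and 5 highest ratios, members past 0.5 between libraries in S only cells, and up to 6 genes of each other list. All members and lists were chosen with earlier results of these data known. With 1 library per genotype no count model was run. Of 21926 gene identifiers 21379 occur in GENCODE M21, which gave positions and sequences. The scripts were tested on simulated data. Python 3.11.15 with numpy 2.4.6, scipy 1.17.1, pandas 2.3.3, scanpy 1.11.5 and matplotlib 3.10.9 was used. In all, 12 alternatives were tried, 2 of them chosen after seeing the data.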

Additional observations from a re-analysis of the deposited data

Results flagged for a closer look

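Hist1h2af differed in direction between states. Its log2 ratio, labelled Eif4g2 cKO over labelled WT, was −0.48 in S only, −0.58 in S and G2M and −0.77 in G2M only cells, and 0.71 in cycle-low cells. It stands out because the library labelled Eif4g2 cKO was lower in each of the 3 cycling states and higher in cycle-low cells. The difference between states was not tested, since each genotype has 1 library. In Hist1h2af 94.0% of the 50-base stretches occur in another gene.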

How the results depend on the processing

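Every summed ratio kept its direction under each alternative, while most moved outside their counting interval. With the state limit at 0.3%, the S only over cycle-low ratio was 1.55 labelled WT and 1.36 labelled Eif4g2 cKO, the S and G2M over S only ratio 1.46 and 1.10, and the S only ratio between libraries −0.53. At 1.0%, which left 30 and 37 S only and 2 and 4 S and G2M cells, these were 2.22, 2.26, 1.99, 0.51 and −0.29. With states set in cells thinned to 1000 UMIs they were 2.03, 1.60, 1.11 (labelled WT alone) and −0.70, and cycle-low cells were 69.7% and 55.5%, S and G2M cells 3.62% and 6.50%. With scanpy phase calls they were 1.73, 1.60, 1.02, 0.75 and −0.50. In cells of 1000 to 10000 UMIs and at most 3% mitochondrial, the S only over cycle-low ratio was 1.90 labelled Eif4g2 cKO, the S and G2M over S only ratio 1.47 and 1.21, and the ratio between libraries −0.59 in S only and −0.26 in all cells. Without erythroid or antigen-presenting cells (87 and 11 cells), the S only over cycle-low ratio labelled WT was 2.09 and the all-cell ratio between libraries −0.44. With CPM without ribosomal protein and mitochondrial genes, which shifts all genes alike, the values were 2.30, 1.96, 1.05 and 0.75 between states, and −0.55 in S only and −0.27 in all cells between libraries. Without Hist1h2ae they were 1.79, 1.66, 1.09, 0.85, −0.45 and −0.26. Without Hist1h2ae and Hist1h2ap they were 1.64, 1.32, 1.06, 0.82, −0.79 and −0.57. Without members of repeated sequence (33 left) the S only over cycle-low ratios were 1.83 and 1.39, and the ratios between libraries −0.88 in S only and −0.68 in all cells. The last 2 alternatives were chosen after seeing the data. Without members of repeated sequence, the count of members higher in S only over cycle-low cells was 16 of 25 (labelled WT) and 11 of 21. That of members past 0.5 between libraries was 16. With all members, the count in S only over cycle-low cells labelled Eif4g2 cKO was 16 at 1.0%, 41 with at least 20 UMIs and 17 with at least 100. At 1.0% the count between libraries was 8. Of 968 alternative values of 145 single-gene ratios, 942 kept their direction, 26 did not and 183 lay outside the interval given. Reversed at 1.0% were Hist1h2af (0.17, S and G2M, between libraries), Hist1h2bc (0.91, the same), Hist1h3a (−0.40, S only over cycle-low, labelled Eif4g2 cKO) and Hist1h4d (0.16, S only, between libraries). The cause was not tested, apart from the few cells at 1.0%. No paired analysis was possible because each genotype has 1 library. No mouse could be left out, so the spread between mice is not known, and depth limits the genes of a few UMIs in cycle-low cells most.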
